A study of Populus tremula x Populus alba with 6 samples.

Results

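Peaks that covered over 50% of the gene to which they were annotated were drawn from a ChIP-seq map of PtrbHLH011, a poplar transcription factor of the bHLH (basic helix-loop-helix) family. They were chosen by coordinates: the overlap of the peak with its annotated gene had to exceed 50% of the gene's span. This held for 114 of 18975 peaks on the P. alba chromosome sequences (0.601%) and for 96 of 17040 on those of P. tremula (0.563%). Each belonged to a gene of its own within its list, and 130 genes were covered in at least 1 list. The cells were leaf mesophyll protoplasts of the hybrid Populus tremula x Populus alba, freed of their walls and transiently expressing PtrbHLH011 with a 10xMyc epitope tag. An antibody against Myc was used for the 3 ChIP libraries, and none for the 3 input ones. Both groups came from cells carrying the tagged factor, and the factor was supplied by transient expression and not by its own gene. The 2 deposited tables, 1 for each parental chromosome set (subgenome), hold no value for a single library. No spread between replicates could therefore be given, and total reads per library are not in the tables. A table of peaks has no expression values, so the cell type label was not checked.

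bHLH proteins pair through their helix-loop-helix region and touch short E-box sequences with the basic stretch before it. In Arabidopsis several members of the family control the response of the plant to iron deficiency. A sequence-specific factor usually gives narrow peaks around its motif, whereas polymerases and some histone marks give signal along gene bodies. The edges, heights and folds of the peaks come from the same ChIP signal that decided which peaks passed the rule. They are therefore described below without a test. The tables do not pair gene identifiers with names, so 4 identifiers are printed and other genes are given by position. Each position is on the chromosome sequence of the named subgenome. It is that of the covering peak, except where a gene's own edges are given for comparison.

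Covering peaks formed the thin end of a steep distribution. Of the 7635 P. alba peaks that touched their gene at all, 6641 covered up to 10% of it and 620 covered 10 to 20%. From 50% upwards the counts stayed low and level, with 29 peaks at 50 to 60%, 16 at 60 to 70%, 18 at 70 to 80%, 17 at 80 to 90%, 12 at 90% to just under 100% and 22 over the whole gene. On P. tremula the whole gene was covered by 18 peaks. The 3 P. alba peaks just inside the threshold covered 50.2, 50.4 and 50.4% (57, 7 and 6 reads at the summit), and the 3 just outside covered exactly 50% in 1 case and 49.9 and 49.7% in the others (707, 1931 and 1210 reads). On P. tremula the nearest inside covered 50.4, 50.6 and 50.8% (7, 1019 and 770 reads), and the nearest outside 49.7, 49.6 and 49.6% (58, 708 and 7 reads). On P. tremula peaks of under 20 and of over 200 reads stood on both sides of the limit, whereas on P. alba all 3 just outside had over 200 reads and none of the 3 just inside did.

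**Figure D1:**
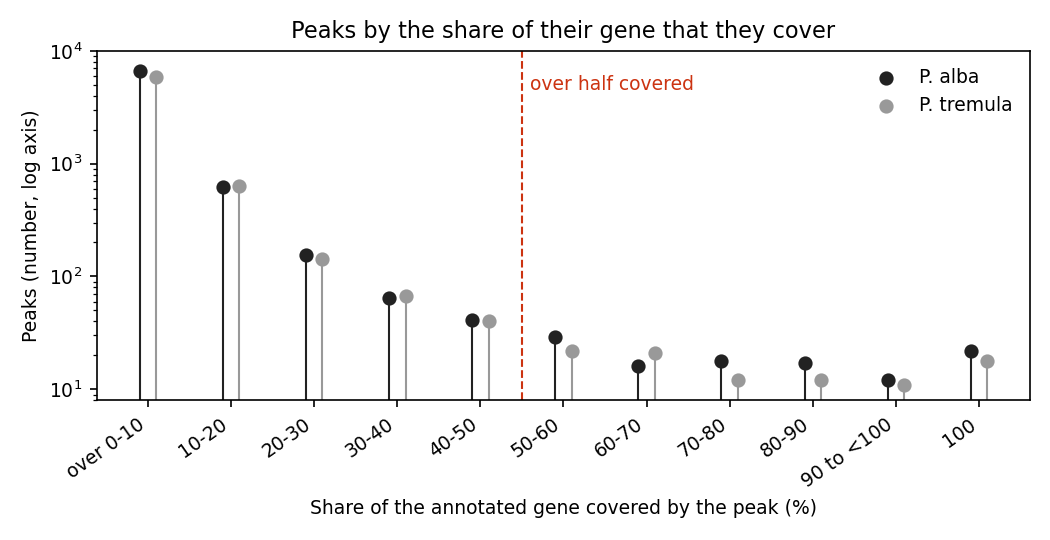
Number of peaks (log axis) by the share of the annotated gene that the peak covers, for peaks that overlap their gene, with P. alba in black and P. tremula in grey. The dashed line marks 50%. Counts drop from 6641 and 5843 peaks at up to 10% to 41 and 40 at 40 to 50%, then level off, with 22 and 18 peaks over whole genes.

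The covered genes were short and the peaks over them long, as the rule favours. The median covered gene spanned 438 bp on P. alba and 440 bp on P. tremula, against 2576 and 2572 bp for genes of the other peaks. The median covering peak was 417.5 bp long on P. alba and 404 bp on P. tremula, against 124 and 128 bp for the others. Genes under 500 bp made up 66 of the 114 and 57 of the 96. Genes of 1000 bp or more made up 15 and 10. Of the peaks annotated to genes under 300 bp, 28 of 438 on P. alba (6.39%, 4.29 to 9.11%) and 21 of 412 on P. tremula (5.10%, 3.18 to 7.69%) covered over 50%. Of the peaks that were 1000 bp or longer, 19 of 36 and 17 of 35 did so. Covering peaks were therefore frequent among very long peaks, but rare even among the shortest genes. All covering peaks were in the authors' class of promoter peaks within 1 kb of a start, against 29.6 and 29.98% of the other peaks. With distance taken from the nearest edge of the peak, the rule itself places the peak there for genes under 2000 bp. Those were all but 3 of the covered genes in each list, so this count is no evidence of a preference for promoters.

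Covering peaks were deeper than the rest of the list, and their folds spread further. The median summit held 83.5 reads on P. alba, where the 25th and 75th percentiles were 41.5 and 675, and 73 on P. tremula, where they were 39.5 and 638.5, against 7 for the other peaks of each list. The median fold over the caller's local background was 4.0 on P. alba (percentiles 2.84 and 7.36) and 3.68 on P. tremula (2.53 and 7.11), against 3.52 and 3.53. A summit of 200 reads or more was held by 49 of the 114 covering peaks of P. alba and 34 of the 96 of P. tremula, where 1.75 and 1.88% of all peaks in the lists had one. Folds of 5 or more were reached by 46 and 37 of them, with a background of 8.21 and 8.08%. Folds of 10 or more were reached by 10 and 7, with a background of 0.78 and 0.628%. In the authors' deposited table the q value was at or under 0.05 for 112 and 94 (72.6 and 72.9% of all peaks) and at or under 0.01 for 106 and 87 (39.8 and 40.1% of all peaks). Since a long peak needs signal over its whole length, these counts carry no independent support.

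Depth divided the covering peaks into 3 sets with unlike folds, with limits of 20 and 200 reads that were set after the values were seen. The middle set, of 20 to under 200 reads at the summit, held 43 P. alba and 46 P. tremula peaks. It had the highest median folds, 8.08 and 7.11, over a local background of 6.13 and 6.55 reads. Other peaks within these limits had median folds of 4.29 and 4.13 over nearly the same background, 6.46 and 6.64 reads, but they were also shallower. The median summit held 56 reads for covering peaks in each list, against 33 and 34 for the others, so the folds were not compared at equal depth. Folds of 5 or more were held by 37 of the 43 (86.0%) and 36 of the 46 (78.3%), against 43.2 and 41.8% of other peaks within these limits. The deep set, of 200 reads or more, had median folds of 2.74 and 2.41 over a background of 301 and 331 reads. The other peaks of 200 reads or more stood at 2.95 and 2.90 over 188 and 189 reads. The shallow set, under 20 reads, held 22 and 16 peaks with median folds of 4.0 and 3.53 over 1.15 and 1.00 reads. Other shallow peaks had 3.52 and 3.53 over the floor of 0.989 and 0.985 reads.

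**Figure D2:**
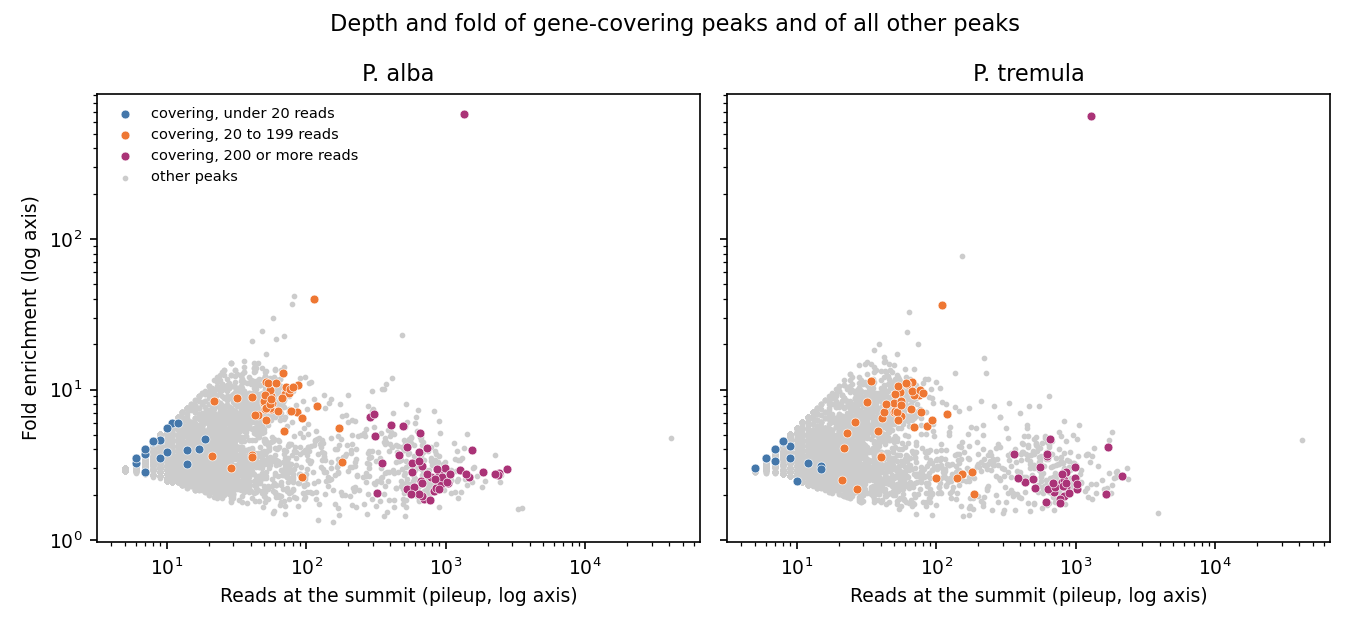
Fold enrichment against reads at the summit (both log axes) for peaks covering over 50% of their gene, coloured by depth, and for all other peaks in grey, in P. alba (left) and P. tremula (right). Each point is 1 peak. The orange set of 20 to under 200 reads lies mostly at folds of 5 or more, the purple set of 200 reads or more mostly lower, with medians of 2.74 and 2.41, and 1 point in each list lies far above, at folds of 677.7 and 655.0.

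Coverage of the gene also differed between these sets. The median covered share was 88.7% in the middle set, 77.4% in the deep set and 58.6% in the shallow set on P. alba, and 85.5, 74.7 and 57.0% on P. tremula. Whole genes were covered by 10, 11 and 1 P. alba peaks of the middle, deep and shallow sets, and by 11, 7 and 0 P. tremula peaks. Both edges of the peak lay within 50 bp of the edges of the gene for 18 P. alba peaks, of which 12 were in the middle set. On P. tremula this held for 16 peaks, again with 12 in the middle set. On chromosome 1 of P. alba, for example, the peak from 12552289 to 12552803 lay on a gene from 12552284 to 12552806 (86 reads, fold 7.07). On chromosome 2 a peak from 14234988 to 14235293 lay on a gene from 14234983 to 14235296 (68 reads, fold 12.8). In these the signal began and ended within a few bases of the annotated gene, with no promoter stretch included.

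Within the gene, summits were spread along the body and were not gathered at the start, as the rule favours. A peak over more than 50% of a gene always includes the gene's middle. The summit counts are therefore no evidence of a preference for the gene body. On P. alba 98 of 114 summits lay inside the gene, 5 upstream of its start and 11 past its end. On P. tremula the counts were 83, 6 and 7. Among other peaks, 37.6 and 37.2% had their summit inside the gene. With the gene cut into 3 equal stretches, the first, the middle and the last held 32, 45 and 21 of the summits inside it on P. alba and 24, 41 and 18 on P. tremula. The peak itself included the gene start in 47 and 37 cases and the gene end in 41 and 36 cases. Among other peaks, 3.93 and 4.13% included the gene start and 0.949 and 0.992% the gene end. Covering peaks lay wholly inside the gene in 51 and 43 cases (44.7 and 44.8%), against 35.05 and 34.6% of other peaks. The rule demands a long overlap with the gene, whereas most other peaks had none. These contrasts, and that of summits inside the gene, therefore follow at least in part from the rule. Covered genes ran on the plus strand in 61 of 114 and 55 of 96 cases (53.5 and 57.3%). The plus strand shares of other peaks were near these, at 50.1 and 49.6%.

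**Figure D3:**
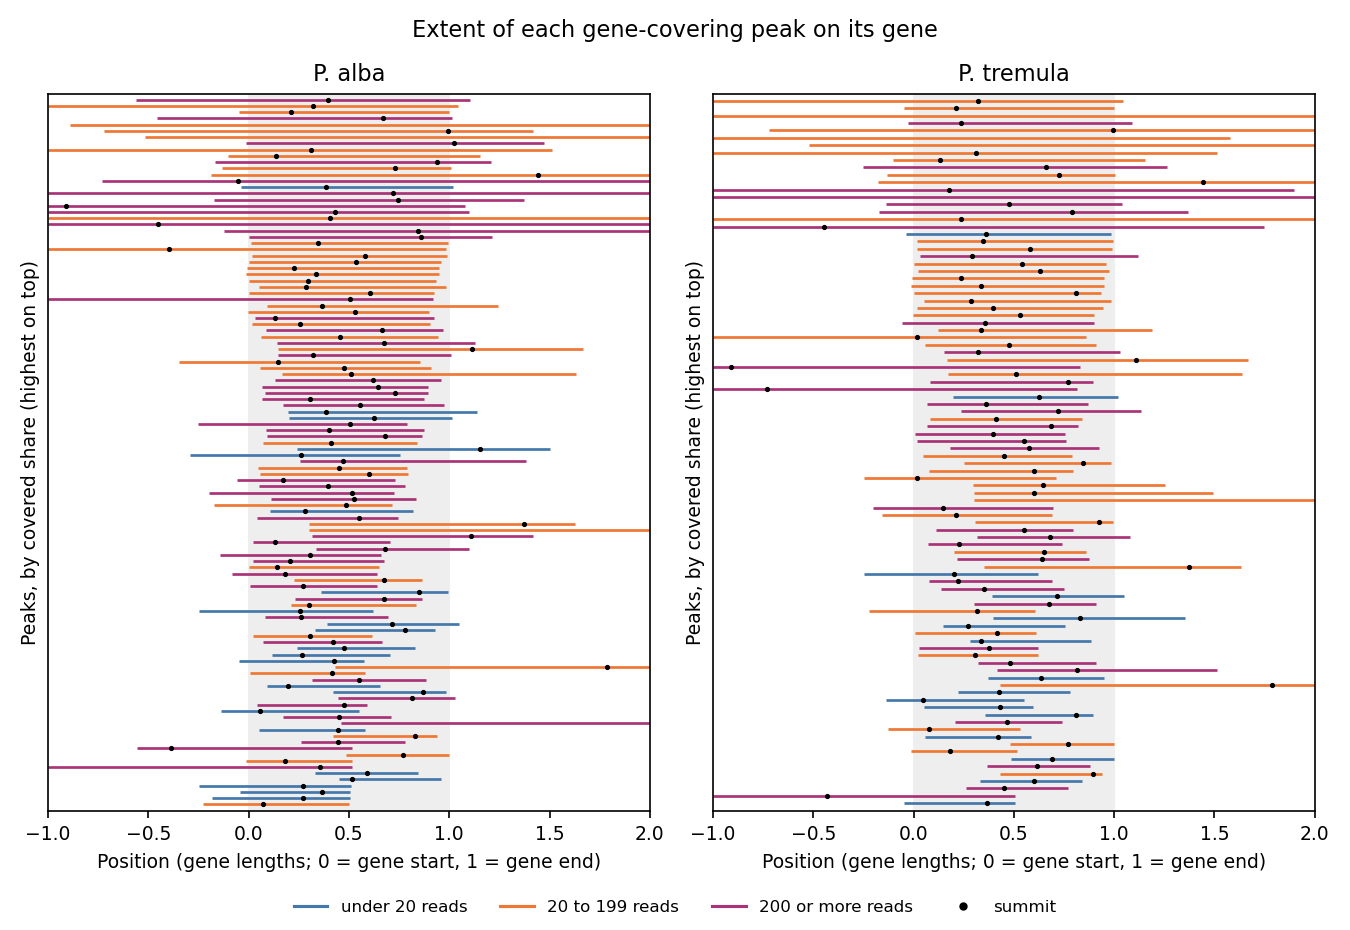
Extent of every covering peak (lines, 114 on P. alba at left and 96 on P. tremula at right) in units of its gene's length, with the gene from 0 (start) to 1 (end) shaded and the summit as a dot. Rows are ordered by covered share and coloured by reads at the summit, and peaks that reach past -1 or 2 are clipped. Most summits lie inside the shaded gene, and the rows at the top, which cover whole genes, are mainly of the middle and deep sets.

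The strongest covering peak lay on Potri.014G104800 on chromosome 14. It ran from 8224506 to 8225967 on P. alba with 1347 reads and a fold of 677.7, and from 8222290 to 8223741 on P. tremula with 1299 reads and a fold of 655.0. It was the only covering peak of 200 reads or more whose local background lay at the floor, at 0.989 and 0.985 reads. The other covering peaks of that depth had backgrounds of 42.7 reads or more on P. alba. The peak covered 81.4 and 81.3% of the gene, lay wholly inside it and had its summit at 0.729 and 0.769 of the gene's length from the start. The gene spanned 1796 and 1785 bp and was among the 5 longest covered in each list.

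By fold, the peak on Potri.001G206900 on chromosome 1 came second among the covering peaks of both lists. It had 113 reads and a fold of 40.05 on P. alba and 111 reads and 36.5 on P. tremula. It covered 76.8 and 75.9% of the gene, from 20692259 to 20693130 on P. alba, with its summit at 0.410 and 0.412 of the gene's length. Its background of 1.85 and 2.07 reads was near the floor. Between the second fold and the third lay a wide gap, since the third was 12.8 on P. alba and 11.4 on P. tremula. These 2 genes thus stood apart from all other covered genes in both lists. Among peaks that did not pass the rule, the highest fold was 41.7 on P. alba and 77.6 on P. tremula, above that of the second gene.

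The next folds lay close together on short genes. Coordinates given with these genes are those of their peaks. On P. alba they began with the chromosome 2 gene above (12.8, and 11.2 on P. tremula). The next was a gene of 324 bp on the same chromosome. Its peak, at 11867164 to 11867466, had a fold of 11.3 with 52 reads, and on P. tremula 6.07 with 26 reads. A gene of 382 bp on scaffold_75 (118689 to 119013) had 61 reads in each list and folds of 11 and 11.1. A gene of 408 bp on scaffold_52 (171292 to 171993) had 53 reads in each list and folds of 11 and 10.5, and its summit lay past the gene end. These peaks covered 57.1 to 97.5% of their genes on P. alba. On chromosome 15 a gene of 334 bp (1073107 to 1073507) had 87 reads and a fold of 10.8 on P. alba but 34 reads and 11.4 on P. tremula, where the background was 2.07 reads against 7.16. On chromosome 10 a gene of 533 bp (5740114 to 5740623) had 77 reads in each list, with folds of 10.1 and 9.87. A gene on scaffold_570 (12911 to 13232) had 62 reads and a fold of 10.8 on P. tremula, and no P. alba peak was annotated to it. On chromosome 8 the gene with its peak at 4844539 to 4844876 had 55 reads in each list and folds of 9.97 and 9.61. Thus 9 of the 10 highest folds of the P. alba covering peaks, and likewise 9 of 10 on P. tremula, belonged to the middle set.

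In 36 genes a covering peak reached a fold of 5 or more in both lists. Summits of these genes held 22 to 1347 reads (median 58.5) on P. alba and 23 to 1299 (median 56) on P. tremula, and 34 and 35 of them were in the middle set. Their median gene length was 433.5 and 436 bp and the median covered share 92.0 and 93.4%. Pileups were identical in 20 of the 36. The genes lay on 12 chromosomes and 3 scaffolds. On chromosome 5, 3 of them were covered at 73.7% (4723218 to 4723427, 32 reads, fold 8.75), 94.9% (17225821 to 17226213, 51 reads, fold 7.43) and 100% (22949774 to 22950293, 50 reads, fold 8.39) on P. alba. Their P. tremula folds were 8.27, 7.21 and 8.11. A gene of 470 bp on chromosome 17 (peak at 457059 to 457648) had 51 reads in each list and folds of 9.26 and 9.29. Covered genes of this kind were thus spread over many chromosomes.

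Covering peaks were often neighbours. With members on the same sequence joined when less than 20 kb apart, 47 of the 114 P. alba peaks fell into 13 runs of 2 or more, and 37 of the 96 P. tremula peaks into 10. In all, the peaks lay at 80 and 69 separate places. Adjacent peaks can stem from 1 stretch of signal and are not independent events. Most runs were of the middle or the deep set, and 1 P. alba run on chromosome 14 (15569438 to 15578626) was of 2 shallow peaks with 7 and 12 reads.

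The longest run of the middle set was on chromosome 2. On P. alba it reached from 18323287 to 18355328 (32.0 kb) and held 9 peaks, 5 of which covered their gene. Together the 9 peaks filled 58.8% of the stretch, and their summits held 26 to 119 reads at folds of 4.38 to 9.84. On P. tremula the run reached from 18317755 to 18353311 (35.6 kb), with 7 peaks that filled 63.5% of it. The same 5 genes were covered in both lists. The longest covering peak of the series lay here over Potri.002G211400, a gene of 660 bp on P. alba and 661 bp on P. tremula. That peak was 7203 bp long on P. alba (18327119 to 18334321) and 7204 bp on P. tremula (18325043 to 18332246), with 75 reads in each list and folds of 9.54 and 9.15. Less than 10% of the peak lay inside the gene, so that the gene was covered by a far longer stretch of signal. The next covered gene, of 1704 bp, was wholly covered by a peak of 3548 bp with a summit of 119 reads in both lists (18343073 to 18346620 on P. alba, folds 7.72 and 6.92). The lists differed at 2 places in the extent of the peaks. The first peak was 1512 bp long on P. alba and 4968 bp on P. tremula, with 71 reads in each. A peak of 4258 bp on P. tremula stood where P. alba had 3 separate peaks of 2229, 1475 and 333 bp.

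**Figure D4:**
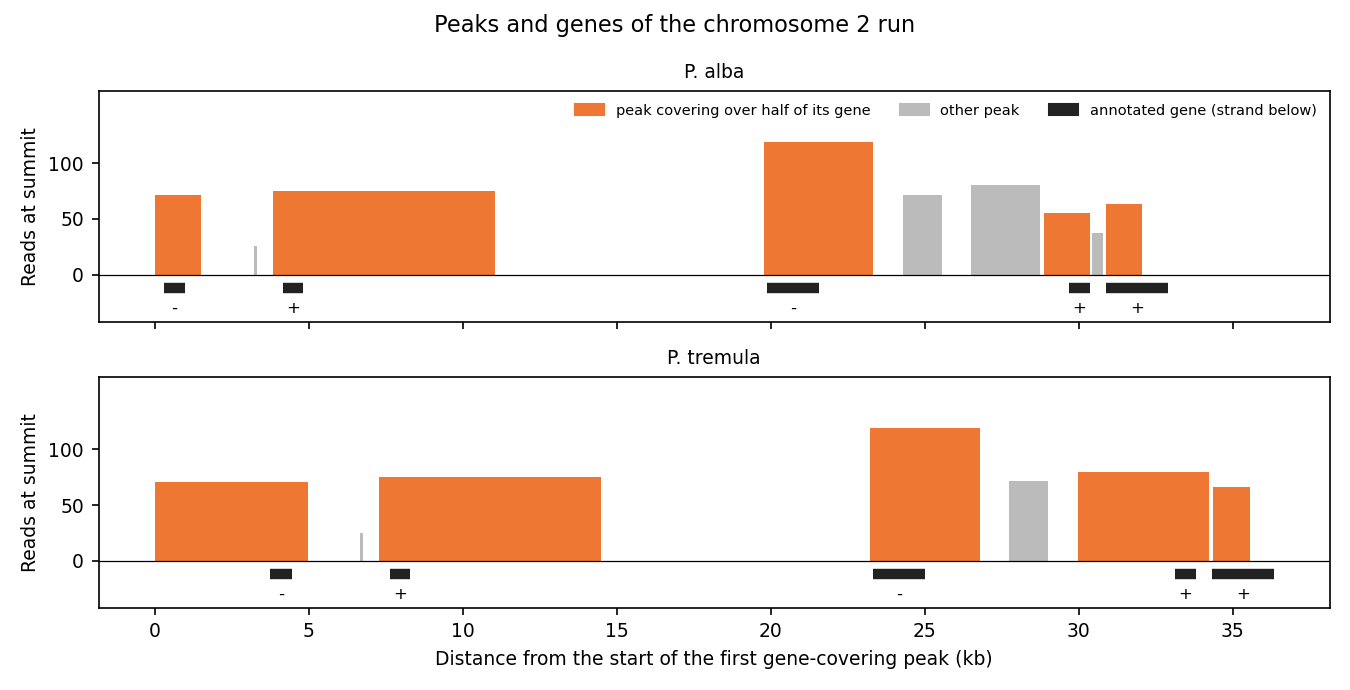
Peaks of the chromosome 2 run as boxes, with the peak's extent on the horizontal axis (kb from the first covering peak of each list) and the reads at its summit as height, in P. alba (top) and P. tremula (bottom). Orange boxes cover over 50% of their gene, grey boxes do not, and black bars are the genes to which the peaks were annotated. The box height is the summit value and not a coverage profile. The longest box is 7203 bp in P. alba and 7204 bp in P. tremula, over a gene of 660 and 661 bp.

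Smaller runs of the same depth lay on chromosomes 9 and 15, and on chromosome 18 of P. alba. On chromosome 9 of P. alba, 2 covering peaks (988070 to 988708 and 989100 to 990524) had 72 and 67 reads and folds of 10.4 and 8.84, and on P. tremula 69 and 67 reads and folds of 9.13 and 9.74. With a further peak between them they filled 91.6 and 89.8% of the stretch. On chromosome 15, peaks of 3702 bp (6311288 to 6314989) and 1964 bp (6316313 to 6318276) had 78 and 81 reads on P. alba, the same counts as on P. tremula, and folds of 7.23 and 10.3 on P. alba against 7.1 and 9.55. All peaks of this run filled 92.2% of 6.99 kb and 95.5% of 6.98 kb. On chromosome 14 a peak of 3934 bp (16948503 to 16952436, 69 reads, fold 5.27) covered the whole of a gene of 928 bp. The next covering peak along held 738 reads at a fold of 4.09. On chromosome 1, a gene of 1604 bp was wholly covered in both lists, on P. alba by a peak at 43639981 to 43641660. Summits there held 94 and 93 reads at folds of 6.50 and 6.25. On chromosome 18 of P. alba, 2 covering peaks of 191 and 618 bp (4044797 to 4044987 and 4053155 to 4053772) had 171 and 56 reads on genes of 296 and 835 bp. These 2 peaks and the one of 738 reads were shorter than their genes, and the others of these runs and genes were longer.

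The deep set was led by chromosome 13. Between 14.6 and 14.9 Mb lay 16 covering peaks on P. alba and 15 on P. tremula, beside 112 and 119 other peaks. The covering peaks there made up 32.7 and 44.1% of the deep set. Of other peaks of 200 reads or more, 38.2 and 38.8% lay in this stretch, so it was not particular to covering peaks. Summits of the covering peaks there held 324 to 2773 and 554 to 2155 reads, with medians of 982.5 and 983. Their median folds were 2.52 and 2.24, against 2.54 and 2.46 for the other peaks of the stretch, and their median background was 417 and 412 reads, against 270 and 283. Covering peaks there were therefore deeper than their neighbours but did not stand higher above local background. The deepest was on Potri.013G140100 (14764405 to 14765963, 2773 reads, fold 2.98), which it covered whole on P. alba. On P. tremula the best peak at this gene covered 25.7% of it. The next in depth on P. alba were at 14759081 to 14760110 (2396 reads, fold 2.80), 14760257 to 14762165 (2385 reads, fold 2.70) and 14762566 to 14763228 (2258 reads, fold 2.74). On P. tremula the deepest were at 14759335 to 14760268 (2155 reads, fold 2.65), 14755882 to 14756524 (1697 reads, fold 4.16), 14722775 to 14724839 (1663 reads, fold 2.02) and 14721928 to 14722637 (1650 reads, fold 2.04).

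The longest covered genes also lay in this stretch. A P. alba gene of 3209 bp was wholly covered by a peak of 5330 bp (14840081 to 14845410, 1033 reads, fold 2.41), and on P. tremula 74.7% of it was covered (1031 reads, fold 2.37). The gene before it, of 3532 bp, was covered to 51.8% by its P. alba peak and to 50.8% by its P. tremula peak, with the lowest fold of any covering peak in each list, 1.85 and 1.76. A gene of 2242 bp was covered on P. alba at 68.5% by a peak at 14846979 to 14848514 (1016 reads, fold 2.43). On P. tremula no single peak covered more than 33.9% of it. A second place on chromosome 13, from 6388403 to 6400326 on P. alba, held 5 covering peaks of 589 to 828 reads and folds of 1.97 to 2.47, and 4 on P. tremula. Runs mostly of the deep set were also found on chromosome 11 (4 P. alba peaks of 495 to 1541 reads, 2 P. tremula peaks) and on chromosome 19 from 3182039 to 3199189 of P. alba (4 and 3 peaks, 180 to 1080 and 188 to 830 reads). Folds over most of this deep set were thus low while reads at the summit and in the background were both high.

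A few deep peaks had higher folds on P. alba than on P. tremula. Besides the chromosome 14 gene, 5 P. alba covering peaks of 200 reads or more had a fold of 5 or more, and no other P. tremula covering peak of that depth did. With that gene the shares were 12.2 and 2.94% of covering peaks of that depth, against 11.7 and 6.99% of other peaks. The P. alba share was thus near that of other deep peaks, and theirs too was higher on P. alba. On scaffold_56 (83485 to 83889) the fold was 6.85 with 308 reads on P. alba and 2.76 with 803 reads on P. tremula. On scaffold_22 (937039 to 937268) it was 6.61 with 288 reads against 5.33 with 38 reads. On chromosome 1 (33391246 to 33391457) it was 5.16 with 653 reads against 2.74 with 152 reads. The other 2, on chromosome 11 (7188755 to 7189345, fold 5.72) and scaffold_149 (61069 to 61627, fold 5.77), lay on genes of which the best single P. tremula peak covered 34.3 and 38.6%. On scaffold_149 the 2 P. tremula peaks covered 71.0% in sum. At a gene on chromosome 13 (9837600 to 9837963) the P. alba summit held 1839 reads and the P. tremula summit 142, with folds of 2.85 and 2.60. No library values were at hand to check these differences.

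The shallow set rested on few reads. P. alba summits of this set held 6 to 19 reads and P. tremula summits 5 to 15, with a median of 8 in each. In the authors' deposited table a q value at or under 0.01 was given for 14 of 22 and 9 of 16, against 33.1 and 32.9% of other peaks under 20 reads. Their genes were the shortest, with medians of 332.5 and 303.5 bp, so that a peak of 223.5 and 180.5 bp, the median lengths here, was enough to pass the limit. The whole gene was covered at 1 place, on chromosome 1 of P. alba (29557852 to 29558167, a gene of 299 bp, 9 reads, fold 4.64), where the P. tremula peak covered 98.4% with 9 reads.

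In 80 genes a covering peak was found in both lists, which is 70.2% of the P. alba and 83.3% of the P. tremula covered genes. Of all genes with a peak of any kind, 10977 were in both lists, which is 81.9% of those of P. alba and 87.9% of those of P. tremula. The shares count different things, since the first asks for a covering peak in each list, and they were not tested against each other. Measured from the gene start, the 2 summits differed by at most 100 bp in 68 of these. Pileups were identical in 29 of the 80 (36.3%), so the lists cannot be taken as independent measurements of the subgenomes. By depth, 39 of the 43 middle-set peaks on P. alba and 42 of the 46 on P. tremula had a covering peak in the other list. In the deep set 29 of 49 and 26 of 34 had one, and in the shallow set 12 of 22 and 12 of 16. Peak lengths differed by a median of 2 bp in the 39 shared genes that were of the middle set on P. alba and by 90 bp in the 29 of the deep set. Identical pileups numbered 20 in the first and 0 in the second.

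Folds of the 80 shared genes were close. On the log2 scale the P. alba fold over the P. tremula fold had a median of 0.05 and an SD of 0.28 across genes, which are not replicates, and the P. alba fold was the higher in 52. In 6 genes the folds differed by more than 1.5 times, each time higher on P. alba. These were the chromosome 1 and scaffold_56 genes of the deep set above and the chromosome 2 gene whose peak started at 11867164. The others were on chromosome 17 (5137959 to 5138225, 8.42 against 5.13) and on chromosome 19 (1923353 to 1923532, 3.98 against 2.49, and 3182039 to 3182189, 3.30 against 2.01). The chromosome 17 summits were nearly equal, with 22 reads in the P. alba list and 23 in the P. tremula list, and the backgrounds were 1.73 and 3.68 reads.

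**Figure D5:**
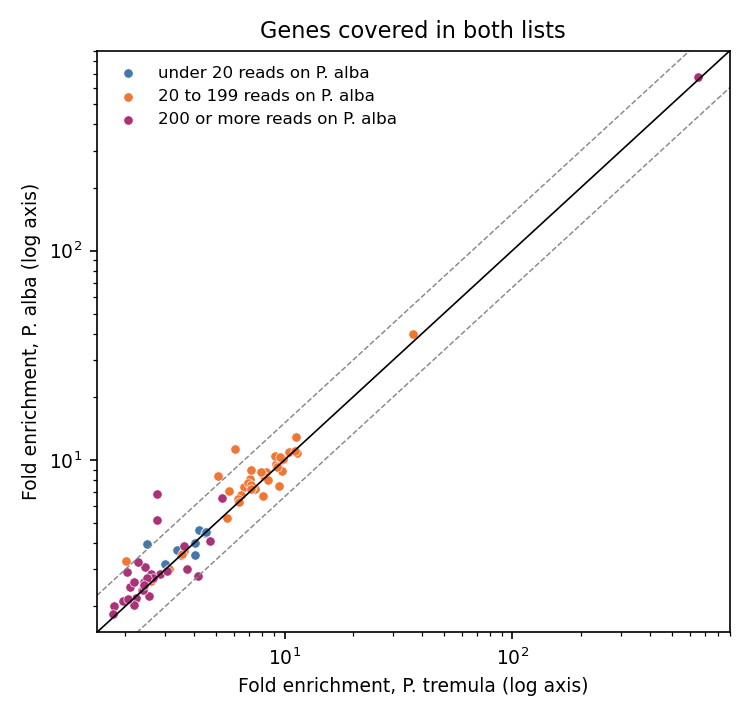
Fold enrichment on P. alba against that on P. tremula (both log axes) for the 80 genes with a covering peak in both lists, coloured by reads at the P. alba summit. The solid line marks equal folds and the dashed lines a ratio of 1.5. Of the 80 points, 6 lie above the upper dashed line and none below the lower.

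Genes covered in 1 list alone usually had a peak in the other. Of the 34 such P. alba genes, 22 had a P. tremula peak that covered 3.30 to 49.7% of the gene, 7 had peaks outside the gene and 5 had none annotated to them. In 16 of the 34 the best P. tremula peak covered 30 to 50%, and in 5 the P. tremula peaks covered over 50% when added up. At a chromosome 1 gene, for instance, P. alba had 1 peak at 4414370 to 4414976 (56 reads, fold 9.03) over 92.2% of the gene. P. tremula had 2 peaks over 77.6% of it in sum. Of the 16 P. tremula genes, 7 had a P. alba peak over 20.05 to 44.6%, 5 had peaks outside and 4 had none. Absence from 1 list of covered genes therefore does not show absence of signal at that copy.

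Further peaks at the covered genes were counted without a test. Another peak was annotated to 55 of the 114 P. alba genes (48.2%) and 40 of the 96 P. tremula genes (41.7%), against 3715 of 13289 (28.0%) and 3151 of 12391 (25.4%) of the other genes with a peak. Among covered genes in runs of 2 or more the counts were 27 of 47 (57.4%) and 23 of 37 (62.2%), and outside runs 28 of 67 (41.8%) and 17 of 59 (28.8%). The share was thus higher in runs than outside them in both lists. Outside runs it was near that of other genes on P. tremula but stayed above it on P. alba (41.8 against 28.0%). The cause was not tested. Only 1 covering peak also covered over 50% of a further gene with a peak in its list, on chromosome 13 of P. tremula (14722775 to 14724839). No other peak covered over 50% of a gene to which it was not annotated, as far as genes that appear in the tables go.

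The sequence on which a peak lies is not part of the rule, and the share on unplaced scaffolds was tested. It was 10 of 114 on P. alba (8.77%, exact 95% interval 4.29 to 15.5%) and 7 of 96 on P. tremula (7.29%, 2.98 to 14.4%), against 4.68 and 4.81% of the other peaks and 4.7 and 4.82% of all. The odds ratios were 1.96 (95% interval 1.02 to 3.76, Fisher's exact p = 0.0693, two-sided) and 1.56 (0.719 to 3.37, p = 0.231), with Benjamini-Hochberg adjusted values of 0.139 and 0.231 over these 2 tests. By the exact test the difference did not pass 0.05 in either list, although the P. alba interval, a normal approximation, lay just above 1. On P. alba it passed when the chromosome 13 stretch was left out (odds ratio 2.30, Fisher's exact p = 0.0261) and when over 40% of the gene sufficed (2.03, p = 0.0195), and p ranged from 0.0195 to 1 over the alternatives run. Depth moved with this share: 7 of the 10 P. alba peaks were of the deep set, and within peaks of 200 reads or more the odds ratio was 1.26 (Fisher's exact p = 0.634). Gene length is part of the rule. With other peaks limited to genes no longer than the longest covered gene, the odds ratios were 1.59 on P. alba and 1.24 on P. tremula. Neither passed 0.05 (Fisher's exact p = 0.156 and 0.517). The test takes peaks as independent, although neighbours were not.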

How the data were processed

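The labels list 3 anti-Myc ChIP and 3 input libraries of 1 kind of cell, numbered as biological replicates 1 to 3. Per the submitters' processing notes, tools included ChIPseeker 1.18.0, MACS2 2.2.7.1 and BWA 0.7.17.2. Not given in the sources used here are the genome build, annotation release, calling options, control and pooling. Columns of the deposited tables, per the file headers, are each peak's summit pileup (a coverage signal in reads), fold enrichment (a ratio), −log10 p-values and q-values, and gene annotation. All peak names carry the same tag, which matches no library label.

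Each peak stood in 2 rows (37950 and 34080 in all) and was counted once. Overlap and covered share were computed from peak and gene coordinates. Background was recovered as (pileup + 1) / fold − 1. With it, the −log10 p of a Poisson model came within 0.01 of that in the authors' deposited table for 99.9% of peaks in each list, and for 107 of 114 and 93 of 96 covering peaks. Intervals of shares are exact (Clopper-Pearson), those of odds ratios are normal approximations, and all cover counting error alone. Python 3.11.15 with scipy 1.17.1 was used. On simulated peaks with known cover, 200 of 200 members were found in each list.

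Peaks, rule and limits were chosen with earlier results of these data known. By the rule for naming, in each list the 10 covering peaks of highest fold, the 5 of highest pileup, covered share (ties by gene length) and gene length, those nearest the limit, and genes with folds of 5 or more in both lists could be named. Other peaks named as examples or exceptions were chosen after their values were seen. Words of gene descriptions, planned for grouping, could not be used because no descriptions were at hand. No sequence or annotation beyond the tables was used.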

Additional observations from a re-analysis of the deposited data

How the results depend on the processing

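Of 84 alternative values for 11 results, 6 moved beyond the stated limits, 2 passed the test threshold where the reported test did not, 2 changed direction and 74 did none of these. With over 80% of the gene required, 51 P. alba and 41 P. tremula peaks and 32 shared genes were left, and median folds were 6.50 and 6.44. Counts fell because fewer peaks qualified, and the cause of the higher folds was not tested. With genes of at least 300 bp the median P. alba gene spanned 531.5 bp, since the shortest were removed. The P. alba scaffold odds ratio was 2.03 with over 40% covered, 2.30 without the chromosome 13 stretch and 0.827 with over 80% covered (Fisher's exact p = 1). The P. tremula one was 0.928 among summits of 200 reads or more (Fisher's exact p = 1), where 3 of 34 covering peaks lay on scaffolds. The causes of these shifts were not tested. The split by depth was chosen after seeing the data. No paired analysis was possible because single libraries have no values in these lists, which also prevents leaving out a replicate. Summits under 20 reads limit what the shallow set can show.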
